A study of Mus musculus with 10 samples.

Results

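Lung transcripts 4 weeks after thoracic irradiation were described by setting 1 irradiated library against the control library of the same time, 2 of the 10 libraries in the series, chosen by their labelled time and treatment. The irradiated library held pooled RNA of 3 C57BL/6J mice, an inbred laboratory strain, whose whole thorax had received 12.5 Gy of γ-radiation. Its control pooled 3 mice of matching age that had received 0 Gy. The other 4 control pools, taken at 24 hours and at 1, 12 and 32 weeks, gave the spread between unirradiated pools. All mice were of 1 strain, no transgene or drug is labelled, and the material was a suspension of whole-lung cells. Each time and treatment had 1 pool, so there was no replicate pool at 4 weeks. In tests against the controls, p-values rest on the spread between control pools of different times, biological and technical together. That spread holds nothing on variation between irradiated pools.

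Ionising radiation breaks DNA, and the lung answers with an early p53-driven arrest and death program, with inflammation and, over months in mice, with pneumonitis and fibrosis. Alveolar macrophages are the resident phagocytes of the air spaces. They clear surfactant lipid, depend on the transcription factor PPARγ, and carry a characteristic set of surface and lipid-handling genes. Monocytes recruited from blood can enter the air spaces after injury and take on that set of genes gradually.

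Division of the deposited counts by the step of each library gave 17472545 fragments for the irradiated pool and 14435741 for its control, and the 5 controls ran from 8679175 to 17323806. Haemoglobin transcripts, a sign of blood, took 2.38% of counts in the irradiated pool and 1.88% in its control, inside the 0.804% to 6.67% of the controls. Mitochondrial transcripts took 1.17% of counts in the irradiated pool, below the 1.48% to 2.16% of the controls. Of the defining lung markers, Sftpc, the surfactant protein C gene of alveolar type 2 cells, was at 31767 CPM in the irradiated pool and 20572 in its control. CPM here is the count scaled to a common library size with TMM factors. The cardiac muscle markers summed to 35.8 CPM in the irradiated pool and 45.6 to 79.3 in the controls. Heart muscle transcripts were thus at the low end in the irradiated pool. The labels give no age beyond the matching of controls.

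Of the 8 genes that passed the test over all genes, 3 were markers of alveolar macrophages, and they were lower. Krt79, Ear1 and Siglecf fell below all 5 controls, as did Cpne5, Fabp1 and Igflr1 and a gene without a symbol. Sowahc alone passed as higher. The test was edgeR's quasi-likelihood test of the irradiated pool against the 5 controls with Benjamini-Hochberg adjustment at 0.05. It called 8 of 15625 genes, 0.0512% of those tested, of which 1 was higher (0.0064%) and 7 were lower (0.0448%). An unadjusted p under 0.05 was found for 607 higher (3.88%) and 513 lower genes (3.28%). Below, a gene passed only if this edgeR test called it. DESeq2 was run on the same pools as an alternative and called many more genes. Its adjusted p against the 5 controls is given for most named genes that it called and the edgeR test did not. For Cdkn1a, Ear2 and Cidec the DESeq2 call alone is stated. It gave 4849 of the 15625 genes no adjusted p and rests on the same lone irradiated pool. A DESeq2 call alone is therefore not counted as passing. Against the matched control, with the spread taken from the other 4, the same tool called 3 genes (0.0192%), all lower.

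Krt79, a keratin gene that alveolar macrophages express (ENSMUSG00000061397), lies on the minus strand of chromosome 15 from 101929332 to 101940324 in GENCODE M21, which uses GRCm38. Its level was 12.6 CPM in the irradiated pool and 108 in its control. The other controls had 166 CPM at 24 hours, 145 at 1 week, 115 at 12 weeks and 134 at 32 weeks. No control came near the irradiated pool, which lay 8.49-fold below its match and 10.6-fold below the control mean of 134 ± 23.3 CPM (SD, n = 5). The log2 change against the 5 controls was −3.42 ± 0.30 (SE; edgeR adjusted p = 0.00297), and the contrast with the matched control passed too (adjusted p = 0.0151). The latter call was lost without the 1-week control (0.0643).

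Ear1 encodes an eosinophil-associated ribonuclease that is also abundant in alveolar macrophages (ENSMUSG00000072601, chromosome 14, 43818765 to 43875517, minus strand). It was at 28.2 CPM after irradiation against 138 in the matched control, and at 193, 137, 149 and 166 CPM in the other controls in time order. The pool lay 4.89-fold below its match, and every control was at least as high as 137 CPM (log2 −2.49 ± 0.25 against the 5 controls, edgeR adjusted p = 0.00727). The contrast with the matched control just missed (adjusted p = 0.0501). Ear genes form a family of close copies with pseudogenes inside this interval, so how fragments were divided among them is uncertain.

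Siglecf, a sialic acid-binding receptor of alveolar macrophages and eosinophils (ENSMUSG00000039013, chromosome 7, 43351341 to 43359531, plus strand), was at 26.9 CPM against 98.8 in its match. In the other controls it was at 133, 139, 127 and 99.97 CPM in time order, so the groups were far apart. Its log2 change was −2.16 ± 0.26 (edgeR adjusted p = 0.0215). That call was lost without the 1-week control (adjusted p = 0.0652) and without the 12-week control (0.0652).

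Of 13 alveolar macrophage markers, 9 lay below all 5 controls and none above, where 16.8% of all genes lay below and 19.1% above. These shares over all genes are the background for each list count below. The median log2 fold of the 13 markers against the matched control was −0.85, beside 0.03 over all genes tested. Ear2, a sister of Ear1, was at 141 CPM against 373 to 544 in the controls and missed the threshold (edgeR adjusted p = 0.0588). Cidec, which encodes a lipid droplet protein, was at 22.7 against 80.3 to 136 CPM (adjusted p = 0.0856). Both were called without the 4-week control, with no filter on low counts and with DESeq2, and Ear2 also with total count scaling. The remaining settings called neither. In the 4-week control 10 of the 13 markers had their lowest control value. Chil3, a secreted chitinase-like protein gene, was at 2048 CPM against 6163 in its match and 5944 to 13228 in the controls (adjusted p = 0.306; DESeq2 9.44e-07).

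Fabp4, a fatty acid-binding protein gene, was at 14.7 CPM against 26.5 to 46.9 in the controls, and Pparg, the PPARγ gene, at 36.4 against 47.6 to 85.3. The mannose receptor gene Mrc1 was at 228 CPM against 236.7 to 391.8, only just outside. These 3 did not pass, though DESeq2 called Fabp4 (adjusted p = 0.0416), and it called 7 of the 13 markers as lower in all. Another 4 defining markers stayed inside the control range. Marco, a scavenger receptor gene, was at 124 CPM in controls that ran from 88.0 to 169. The integrin gene Itgax, which encodes CD11c, was at 235.3 CPM and its matched control, the lowest, at 234.9. Plet1 was at 301 CPM against 273 in its match, and the carbonic anhydrase gene Car4 at 252 against 199.5. The markers therefore parted, with Krt79 10.6-fold below the control mean and Itgax level with the lowest control. In RNA of a whole cell suspension, fewer cells of a type and less RNA per cell cannot be told apart.

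**Figure D1:**
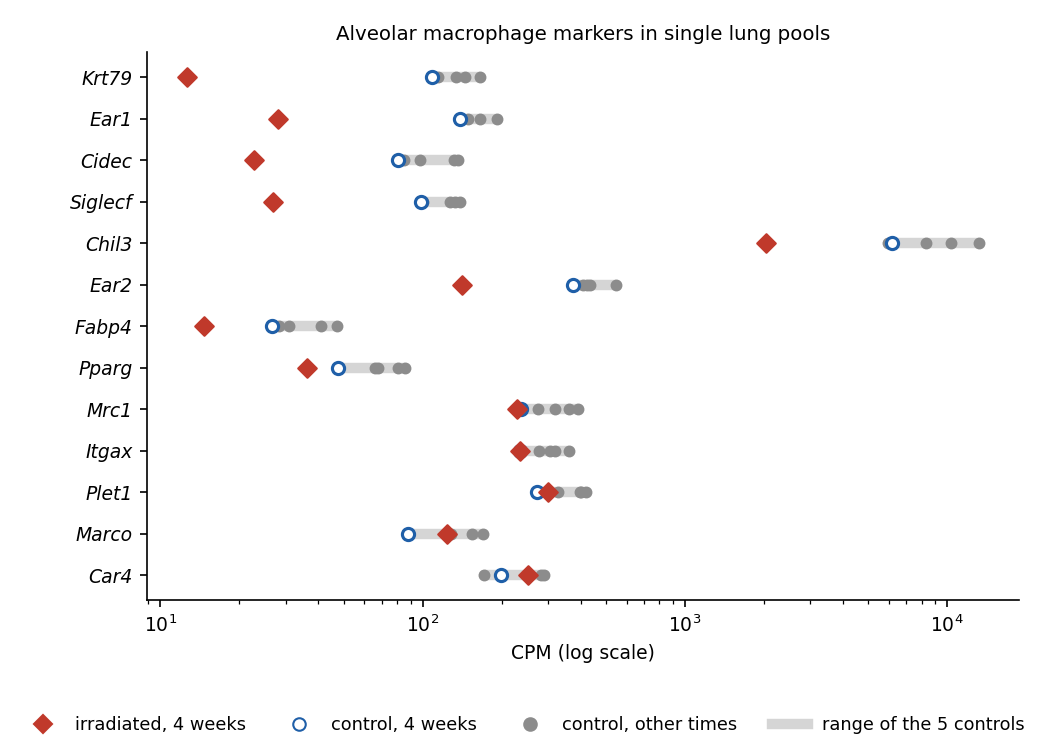
CPM (log scale, horizontal) of 13 alveolar macrophage markers in single pools: the 4-week irradiated pool (red diamond), its matched control (open circle), the other 4 controls (grey points) and the range of the 5 controls (grey bar). Diamonds of 9 markers lie left of the bar, from Krt79 at 12.6 CPM to Mrc1 at 228, and those of Itgax, Plet1, Marco and Car4 lie on it.

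Promoter stretches of 4 of the genes that fell are shown because these genes were low in the same pool. They are the 100 bases before the RefSeq start site in build GRCm38.p6, read on the gene's strand, with matches on either strand to GAGGAAG, a core of the site of the macrophage factor PU.1, in capitals. Krt79 is at chr15:101940325-101940424 (minus), Ear1 at chr14:43819640-43819739 (minus), Siglecf at chr7:43351241-43351340 (plus) and Fabp1 at chr6:71199779-71199878 (plus). For Ear1 and Fabp1 the RefSeq and GENCODE starts differ. By GENCODE M21 the whole Ear1 stretch and part of the Fabp1 stretch lie inside the gene, so whether they are promoter sequence is uncertain.
Krt79: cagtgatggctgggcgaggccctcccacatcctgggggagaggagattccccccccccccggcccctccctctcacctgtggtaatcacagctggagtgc
Ear1: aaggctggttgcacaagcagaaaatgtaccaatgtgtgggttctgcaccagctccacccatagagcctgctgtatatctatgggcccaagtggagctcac
Siglecf: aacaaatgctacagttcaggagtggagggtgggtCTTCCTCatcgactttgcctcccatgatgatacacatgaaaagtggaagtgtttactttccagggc
Fabp1: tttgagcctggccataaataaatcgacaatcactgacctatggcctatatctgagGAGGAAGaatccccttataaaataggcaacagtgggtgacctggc
In windows of 250 bases before to 50 after the start, these letters were found in 3 of the 12 alveolar macrophage markers with a promoter in the table. Over all 32851 promoters 13.6% held them. Siglecf and Fabp1 have 1 match each, that of Fabp1 inside its GENCODE interval. The letters are not in the windows around the RefSeq starts of Krt79 and Ear1.

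Cpne5, a copine gene whose product binds phospholipid in response to calcium (ENSMUSG00000024008, chromosome 17, 29155556 to 29238167, minus strand), was at 6.06 CPM against 39.2 in its match. The other controls lay together at 46.1, 47.0, 47.0 and 48.5 CPM in time order. The fall was 6.32-fold against the matched control (log2 −2.92 ± 0.26 against the 5, edgeR adjusted p = 0.00297, and 0.0224 against the match). The call against the match was lost with total count scaling (0.0534) and without the control of 1 week (0.104), 12 weeks (0.0819) or 32 weeks (0.0513). Fabp1, the liver-type fatty acid-binding protein gene (ENSMUSG00000054422, chromosome 6, 71199827 to 71205023, plus strand), was at 11.2 CPM against 67.4 in its match and 64.7 to 114 in the controls (adjusted p = 0.027). Its call was lost without the 1-week (0.117) or the 32-week control (0.0915). Igflr1, a transmembrane receptor gene (ENSMUSG00000036826, chromosome 7, 30565427 to 30567962, plus strand), was at 8.52 against 29.99 to 41.3 CPM (adjusted p = 0.0455). That call was lost with total count scaling (0.0509) and without the control of 24 hours (0.0943), 1 week (0.184), 12 weeks (0.0839) or 32 weeks (0.105).

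The gene ENSMUSG00000107372, to which the annotation used gave no symbol, had 208 counts in the matched control and rounded to 0 in the irradiated pool, at least 78.3-fold lower against a floor of 3 counts in that library. Its identifier is not in that annotation, so its position and overlap with other genes are not given here, and how fragments were assigned to it was not tested. Controls held it at 17.3, 14.03, 18.03, 11.97 and 18.3 CPM in time order, and the other irradiated pools at 21.7, 23.0, 17.1 and 19.97. It passed against the 5 controls (edgeR adjusted p = 0.00297) and against the match (0.0151; 0.0643 without the 1-week control and 0.354 with limma on log2(FPKM + 1)). In the test of whether the 4-week effect differs from that at the other 4 times, it was the single gene called (0.0064% of 15625, edgeR adjusted p = 0.0386). That call was lost with total count scaling (0.0719), with limma at either pseudocount (0.9996 and 0.121) and without the pools of any 1 of the other times (0.135 to 0.205). No other gene with at least 10 CPM in 9 of the 10 pools was at 0 in the remaining one.

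Sowahc, which encodes an ankyrin repeat protein (ENSMUSG00000098188, chromosome 10, 59221953 to 59226434, plus strand), was at 16.9 CPM in the irradiated pool. The 5 controls lay between 1.19 and 1.67 CPM, with 1.65 in the match, and the irradiated pools of the other times between 1.55 and 2.35. The 4-week pool was thus alone among 10, 9.41-fold above its match (log2 3.47 ± 0.35 against the 5 controls, edgeR adjusted p = 0.00727). The contrast with the match (adjusted p = 0.504) and the difference from the other times (1) did not pass. DESeq2 and limma on log2(FPKM + 1) called the contrast with the match, and no other setting did.

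The remaining named genes are the largest matched folds among genes of at least 50 counts that lay outside the controls, and none of them passed the edgeR test. DESeq2 called Zranb3 (adjusted p = 0.0434) and Itgad (0.0369), and limma on log2(FPKM + 1) called Wfdc10 (0.00238). At that minimum, 223 of 12309 genes (1.81%) lay at least 2-fold above the matched control and 202 (1.64%) at least 2-fold below. Higher were Zranb3, a gene of replication fork remodelling, at 24.0 CPM against 1.99 to 8.15 in the controls, and Aqp4, a water channel gene, at 11.2 against 1.95 to 3.80. The transmembrane gene Tmc5 was at 13.0 against at most 5.10 CPM, Il12b of interleukin 12 at 11.2 against 2.17 to 7.68, and the lysine-degrading enzyme gene Aass at 9.90 against 2.51 to 8.66. Cecr2, a bromodomain gene, was at 8.75 against 2.34 to 6.37 CPM, and Cpt1c at 5.99 against 1.56 to 5.92. Lower were Itgad, a leukocyte integrin gene, at 1.46 against 9.10 to 41.2 CPM, and Itga8, a mesenchymal integrin gene, at 19.3 against 27.2 to 86.3. Wfdc10 was at 0.307 against 3.73 to 7.78 CPM, the kinase gene Prkg2 at 2.15 against 3.14 to 11.01 and Amph at 1.46 against 3.49 to 7.04.

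The plot over time sets the 4-week values beside those of the other irradiated pools, each of which has its own control. Krt79 was at 149, 105, 66.8 and 106 CPM in the irradiated pools of 24 hours, 1, 12 and 32 weeks, so its 4-week value was the lowest of all 10 pools. Ear1 was at 250, 142, 122 and 107 CPM and Siglecf at 163, 145, 85.6 and 122 at those times. For 9 of the 13 alveolar macrophage markers the 4-week irradiated pool was the lowest of the 10, beside 7.34% of all genes. The median matched log2 fold of the list was 0.29, 0.05, −0.85, 0.06 and 0.53 in time order. In the test of the difference from the other times none of the 13 passed, with Krt79 nearest (edgeR adjusted p = 0.293). DESeq2 called 4 of them in that test, Krt79 (3.12e-07), Ear1 (0.00266), Siglecf (0.0218) and Cidec (0.0218), and edgeR with no filter on low counts called Krt79 (0.023).

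**Figure D2:**
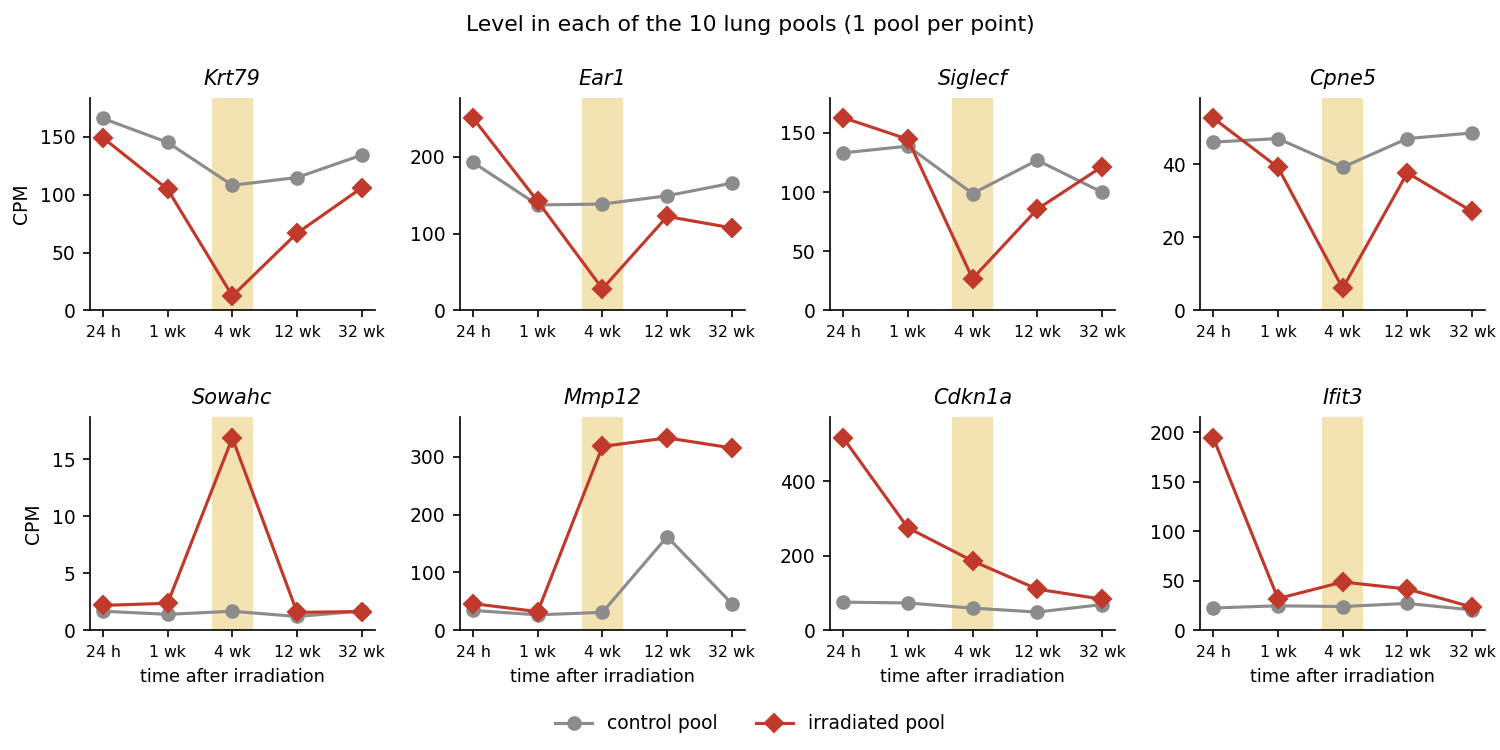
CPM (vertical, from 0) of 8 genes in the 5 control pools (grey) and the 5 irradiated pools (red) by time after irradiation, with the 4-week pools shaded. Krt79, Ear1, Siglecf and Cpne5 have their lowest point, and Sowahc its highest, in the 4-week irradiated pool, while Cdkn1a and Ifit3 are highest at 24 hours.

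Some other macrophage genes lay above the controls in the same pool, and others lay below them. Mmp12, the macrophage elastase gene, was at 318 CPM against 30.6 in its match, 10.3-fold higher. The other controls had 33.9, 26.3, 162 and 45.7 CPM in time order, the 12-week control being far above the rest. The change did not pass against the 5 controls (log2 2.41 ± 0.93, edgeR adjusted p = 0.682), but did without the 12-week control (log2 3.21, adjusted p = 0.00821). Irradiated pools were at 45.7 and 31.8 CPM before and 333 and 316 after, so the 4-week pool was the earliest with this level.

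Among 19 scavenger and lipid-associated macrophage genes, 5 lay above all controls and 6 below, and none passed. Over all genes 19.1% lay above and 16.8% below. DESeq2 called Abcg1 (adjusted p = 0.00957) and Axl (0.0475) as lower. Above were Msr1, the class A scavenger receptor gene (67.0 against 20.3 to 40.7 CPM), Trem2, a lipid receptor gene (41.6 against 18.1 to 30.3), Gpnmb (220 against 75.1 to 217), Cd63 (412 against 226 to 396) and Cd5l. Below were Axl, which encodes a receptor for dying cells (357 against 491 to 694 CPM), Mertk, of the same receptor family (51.5 against 61.0 to 94.8), and Abcg1, a cholesterol exporter gene (189 against 284 to 393). The lipid-handling genes Lpl (441 against 537 to 824 CPM) and Lipa and the tetraspanin gene Cd9 were below too. The pattern ran in both directions, and 14 of the 19 had their lowest control value in the matched control, beside 19.3% of all genes, so their matched folds are higher than folds against the control mean.

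Of 16 markers of monocytes and interstitial macrophages, 6 lay above all controls and 0 below (median matched log2 0.53, against the 5 controls 0.17). The fractalkine receptor gene Cx3cr1 was at 135 CPM against 65.7 to 103. C1qa, C1qb and C1qc, which encode the recognition subunits of complement C1, were at 215, 376 and 252 CPM in the irradiated pool. Their controls ran from 105 to 197, from 178 to 308 and from 112 to 198. C3ar1, a complement receptor gene, was at 55.0 against 19.3 to 27.2 CPM (edgeR adjusted p = 0.206; DESeq2 0.00716), while 5 of the 15 complement genes, Serping1 among them, lay below the controls and 6 above. The monocyte genes Ly6c2 (141 CPM, controls 109 to 148) and Ccr2 (175, controls 90.2 to 184) were within range. None of the monocyte or complement genes passed.

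**Figure D3:**
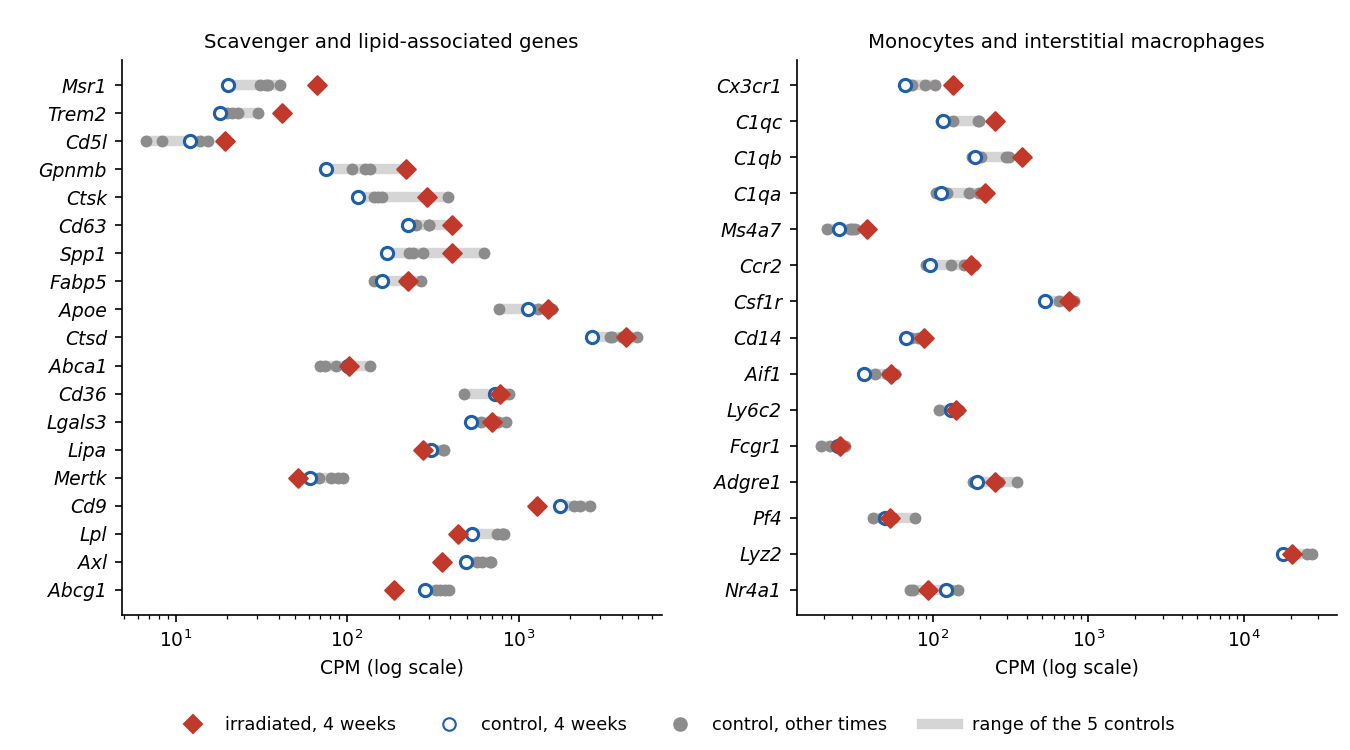
CPM (log scale) of 19 scavenger and lipid-associated genes (left) and 15 of the 16 monocyte and interstitial macrophage markers (right) in single pools, ordered by change against the 5 controls; symbols are the 4-week irradiated pool (diamond), its match (open circle), other controls (grey points) and their range (bar). Diamonds leave the bar to the right for Msr1 and Cx3cr1 and to the left for Abcg1 and Axl.

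Of 30 tested cytokine and inflammatory genes, 15 lay above all controls and 4 below, and none passed. Ccl7, a monocyte attractant gene, was at 15.7 CPM against 5.10 to 8.35, and Ccl2, of the same kind, at 12.6 against 3.38 to 6.42. Lcn2, which encodes an iron-sequestering acute phase protein, was at 198 CPM against 63.0 to 108 (edgeR adjusted p = 0.248; DESeq2 0.00492), and the acute phase gene Saa3 at 42.8 against 8.92 to 41.9. Il18, an inflammasome cytokine gene, was lower, at 30.5 against 63.8 to 109 CPM (adjusted p = 0.191; DESeq2 4.4e-05). Of 12 alternative activation genes 1 lay above the controls and 3 below, Chil3 and Mrc1 among the latter. The other was Chil4, a chitinase-like gene, at 3.61 against 8.62 to 24.6 CPM (edgeR adjusted p = 0.525; DESeq2 0.0369). Alox15, a lipoxygenase gene and the member above, was at 163 against 61.7 to 101 CPM, and did not pass (adjusted p = 0.252; 0.0253 without the 12-week control and 0.00894 with DESeq2). Il6, Il10, Cxcl1 and Csf3 were under the filter on low counts.

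Part of the p53 response was still above the controls at 4 weeks. Cdkn1a, the gene of the arrest protein p21, was at 186 CPM against 58.9 in its match and 75.0, 72.7, 48.3 and 68.4 in the other controls in time order. It lay 3.15-fold above its match and narrowly missed the threshold (log2 1.51 ± 0.21, edgeR adjusted p = 0.0528). Among the other settings, Cdkn1a was called without the 12-week control, with no filter on low counts, with DESeq2 and with limma on FPKM. It was not called with total count scaling, with recovered fragments or without any 1 of the other controls. At 24 hours and 1 week the irradiated pools had 517 and 275 CPM, and at 12 and 32 weeks 110 and 82.8. Of 20 p53 arrest and feedback targets 8 lay above all controls and 0 below (median matched log2 0.15). Mdm2, the p53 ubiquitin ligase gene, was at 95.3 CPM against 53.3 to 67.3, Ccng1 at 148 against 75.9 to 117, Phlda3 at 67.8 against 32.8 to 39.6 (DESeq2 adjusted p = 0.0251) and Zmat3 at 8.52 against 2.97 to 5.003. Gtse1 and Sesn2 were at 8.75 against 2.55 to 7.13 and 35.0 against 15.9 to 29.4 CPM. Btg2 (247 CPM, controls 193 to 291) and Xpc (40.4, controls 38.1 to 42.2) were within range, and Trp53 itself was at 89.5 CPM against 92.8 in its match.

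Among 14 p53 death genes and receptors, 11 lay above all controls and 2 below (median matched log2 0.50). Ephx1, a detoxifying epoxide hydrolase gene, was at 282 CPM against 122 to 150 (edgeR adjusted p = 0.0977; DESeq2 0.000121), and the stress cytokine gene Gdf15 at 10.7 against 1.53 to 6.58. The receptor genes Eda2r and Tnfrsf10b were at 5.30 against 1.11 to 2.86 CPM and 3.30 against 0.509 to 1.82. Fas, a death receptor gene, was lower than every control at 33.3 against 38.7 to 51.4 CPM, and Perp, a junction protein gene, at 36.3 against 57.6 to 75.7. None of the list passed, and DESeq2 called Perp too (adjusted p = 0.0369). Cdkn2a, the p16 senescence gene, had 0 counts in both 4-week pools and was not tested. Of 23 tested senescence and secretory genes, 7 lay above and 3 below, beside 19.1% and 16.8% of all genes. Igfbp3 was among those below, at 30 against 42 to 65.5 CPM.

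Division and repair genes were not low at this time. Of 22 mitosis and spindle genes, 11 lay above all controls and 0 below, and 8 were at the highest of all 10 pools, beside 5.66% of all genes. Kif20a was at 38.7 CPM against 20.6 to 25.7 and Plk1 at 23.6 against 4.08 to 17.1, while Mki67 was within range at 32.6 (controls 9.76 to 40.2). The median matched log2 fold of this list was −2.07 at 24 hours, −0.78 at 1 week and 0.34 at 4 weeks. Replication genes had 7 of 22 above and 1 below, with Mcm5 at 81.7 against 58.2 to 68.8 CPM. Damage sensing and repair genes had 8 of 29 above and 2 below, beside 19.1% above and 16.8% below over all genes. Fanca was at 22.7 against 9.41 to 13.8 CPM and Fancd2, of the same repair pathway, at 3.15 against 5.04 to 9.49. None of these passed in either test.

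Interferon-stimulated genes, the antiviral genes that interferon switches on, were mostly above the controls. Of 27 tested, 20 lay above all 5 and 1 below, and 9 had an unadjusted p under 0.05. None passed after adjustment in edgeR, while DESeq2 called 4 as higher, Ifit1 (adjusted p = 0.0393), Ifit3 (0.019), Usp18 (0.027) and Irf7 (0.0475). Ifit3 was at 48.6 CPM against 23.8 in its match and 22.3, 24.5, 26.9 and 20.3 in the other controls in time order, and every control was far below it (log2 1.03 ± 0.21, edgeR adjusted p = 0.252). Ifit1 was at 32.7 against 10.8 to 16.8 CPM, Oasl2 at 77.5 against 30.6 to 50.3 and Isg15 at 19.4 against 7.13 to 13.95. Irf7, a regulator of the program, was at 85.7 CPM against 33.0 to 53.7, and Usp18, its feedback protease gene, at 98.7 against 37.2 to 57.2. Usp18 was the single list member at its highest of all 10 pools. The RNA sensor gene Ifih1 lay below the controls at 20.3 against 22.97 to 29.4 CPM, and Rsad2, Mx1 and Cxcl10 were within range. Median matched log2 folds were 1.63, 0.02, 0.61, 0.36 and 0.19 in time order.

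Stretches of 4 of these promoters (RefSeq, build GRCm38.p6, gene's strand), each of which holds it, show an element common in the family. Matches on either strand to the core of this interferon-stimulated response element are in capitals. The letters searched were GAAA, any 2 bases, and GAAA. Overlapping matches run together. Ifit1 is at chr19:34640755-34640854 (plus), Ifit3 at chr19:34583343-34583442 (plus), Isg15 at chr4:156200827-156200926 (minus) and Oas1a at chr5:120907526-120907625 (minus).
Ifit1: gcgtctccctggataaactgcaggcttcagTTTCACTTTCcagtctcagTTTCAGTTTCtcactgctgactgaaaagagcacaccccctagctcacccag
Ifit3: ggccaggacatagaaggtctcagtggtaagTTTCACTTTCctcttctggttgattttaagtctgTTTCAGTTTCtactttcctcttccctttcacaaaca
Isg15: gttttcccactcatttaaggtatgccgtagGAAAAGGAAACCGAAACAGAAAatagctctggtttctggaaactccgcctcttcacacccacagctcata
Oas1a: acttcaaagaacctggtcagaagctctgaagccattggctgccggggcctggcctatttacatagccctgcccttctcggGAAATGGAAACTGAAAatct
Among 20 list members with a promoter in the table, 12 held the element in the window of 250 bases before to 50 after the start, beside 3.44% of all promoters. Of the 16 that lay above all 5 controls, 8 held it, so members with and without these letters in the window were among those above the controls. Oas1a, an RNA-activated synthetase gene, was at 66.8 CPM against 31.0 to 42.2.

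Epithelial and lipid genes formed a second large group above the controls. Of 14 alveolar type 2 cell markers, 11 lay above and 1 below (median matched log2 0.72), and of 13 fatty acid synthesis genes 11 lay above and 0 below (0.49). Type 2 cells make surfactant and draw on this pathway for its lipid. Chil1 was at 1524 CPM against 613 to 1027, Sftpa1, the surfactant protein A gene, at 7363 against 3071 to 6213, Lamp3, a lamellar body gene, at 338 against 119 to 297 and Muc1 at 239 against 77.8 to 167. Sftpc at 31767 CPM was inside the controls, whose highest had 32379, and Sftpb was inside too. Cebpa, a transcription factor gene of the lineage, lay just below at 16.6 against 17.7 to 32.9 CPM. None of either list passed in edgeR, while DESeq2 called Chil1 (adjusted p = 0.0377) and Scd2 (0.0374) as higher.

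Scd1, the stearoyl-CoA desaturase gene, was at 2597 CPM against 666 in its match and 1005, 691, 1487 and 539 in the other controls in time order. Its matched fold was 3.90, and at 1 week the irradiated pool had 3859 CPM (log2 1.56 ± 0.40 against the 5 controls, edgeR adjusted p = 0.481). Fasn, the fatty acid synthase gene, was at 381 against 159 to 276 CPM, Scd2 at 294 against 134 to 189 and Srebf1, the lipogenic transcription factor gene, at 129 against 72.5 to 101. Among 16 cholesterol synthesis and uptake genes 7 lay above and 0 below. Median matched log2 folds of type 2 cell markers were 0.56, 1.16, 0.72, −1.54 and −0.85 in time order, and those of fatty acid synthesis 0.43, 0.94, 0.49, −0.20 and 0.17.

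**Figure D4:**
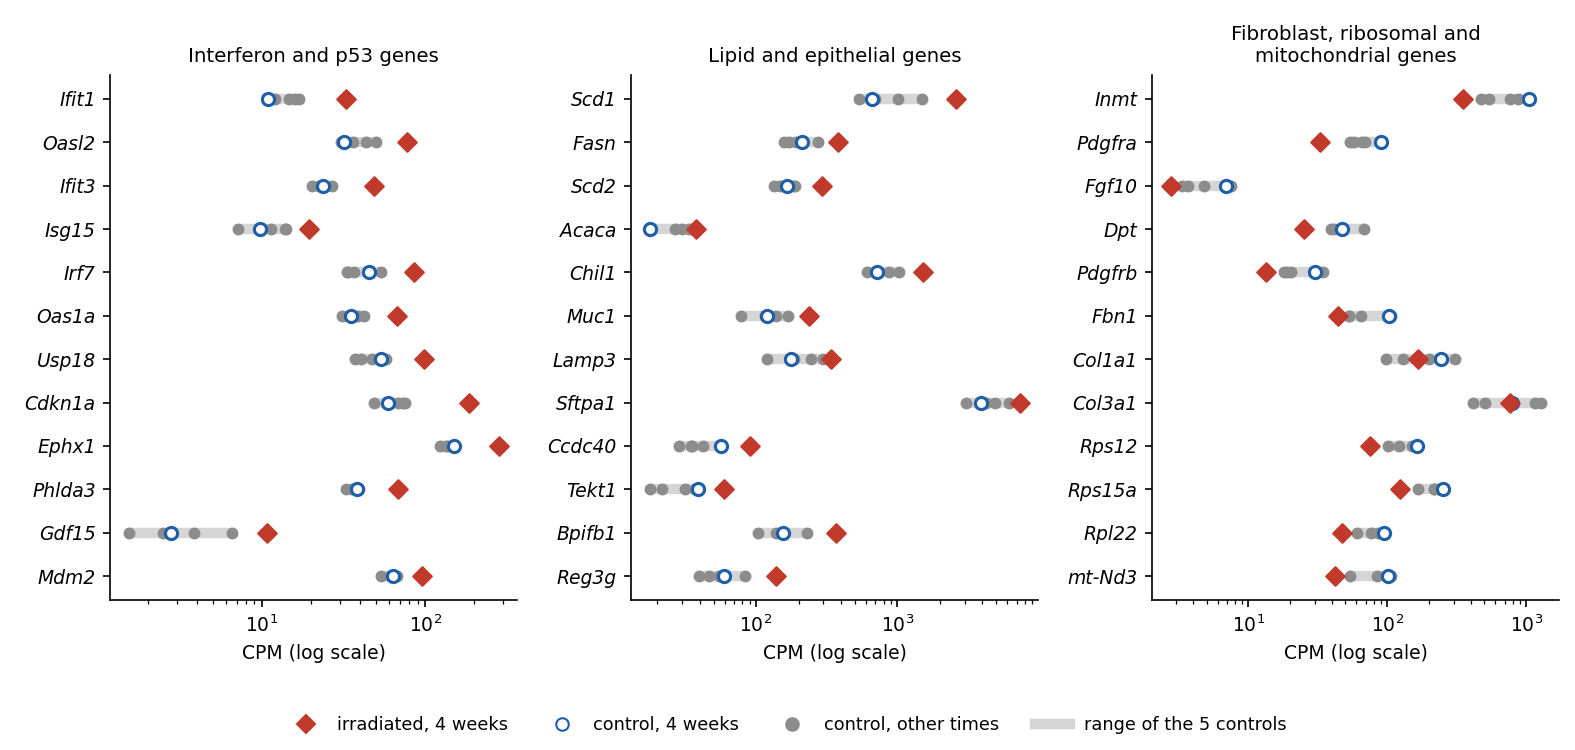
CPM (log scale) of interferon and p53 genes (left), lipid and epithelial genes (middle) and fibroblast, ribosomal and mitochondrial genes (right) in single pools; symbols are the 4-week irradiated pool (diamond), its match (open circle), other controls (grey points) and their range (bar). Diamonds stand right of the bar in the left and middle panels and left of it on the right, except Col1a1 and Col3a1, which are on it.

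Airway markers were high in both 4-week pools. Of 14 ciliated cell markers, 12 lay above all controls, and 12 had their highest control value in the matched control. The median was 0.30 (log2) against the match and 0.83 against the 5 controls. Ccdc40, an axoneme assembly gene, was at 91.0 CPM against 56.4 in the match and 28.5 to 41.97 in the other controls, and Tekt1 at 59.5 against 39.0 in the match. Of 12 club and secretory cell markers 8 lay above and 0 below, with Bpifb1 at 368 against 104 to 231 CPM and the antimicrobial lectin gene Reg3g at 138 against 39.7 to 84.1. Scgb1a1, the defining club cell gene, was lower than its match, at 7372 against 11261 CPM, and within range. Among 14 genes of injured and transitional epithelium 7 lay above and 1 below: the keratin genes Krt8 (232 against 115 to 168 CPM), Krt18 (104 against 52.5 to 67.7) and Krt7 were above and Krt19 below. None of these airway and epithelial genes passed, while DESeq2 called Ccdc40 (adjusted p = 0.0422), Bpifb1 (0.035), Reg3g (0.0369) and Krt18 (0.0494) as higher. The ciliated markers summed to 1127 CPM in the irradiated pool, 971 in its match and 554 to 799.7 in the other controls. In the irradiated pools of 24 hours, 1, 12 and 32 weeks they summed to 366, 634, 590 and 1610 CPM. The club and secretory markers summed to 14741 CPM in the 4-week irradiated pool and 17382 in its match. The pools of 32 weeks had 15007 (control) and 23639 (irradiated), and the remaining pools 5866 to 11197. The part of tissue sampling in these values was not tested. Of 11 alveolar type 1 cell markers 5 lay above and 0 below, with the receptor gene Ager at 363 against 173 to 322 CPM and the water channel gene Aqp5 at 82.2 against 38.3 to 66.4. Against the match 6 of the 11 were higher and 5 lower. Their median log2 was 0.016 against the match and 0.295 against the 5 controls.

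Most mesenchymal markers were low against the match, with 14 of 15 fibroblast and 9 of 11 tested smooth muscle and pericyte markers lower. Of the smooth muscle and pericyte markers 2 lay above all controls and 2 below. Their median log2 was −0.62 against the match and −0.27 against the 5 controls. Of 15 fibroblast markers, 8 lay below all controls and 0 above, with a median log2 of −1.23 against the match and −0.84 against the 5 controls. In 8 of the 15 the matched control was the highest control. Inmt, a methyltransferase gene of lung fibroblasts, was at 348 CPM against 1042 in its match and 763, 536, 471 and 876 in the other controls in time order. Pdgfra, the receptor gene that marks alveolar fibroblasts, was at 33.0 against 54.3 to 89.6 CPM, Dpt at 25.2 against 39.4 to 67.5 and Fgf10, a growth factor gene for epithelium, at 2.76 against 3.31 to 7.51. Each of these fibroblast values lay below its lowest control, and none passed (edgeR adjusted p from 0.505 to 0.842). DESeq2 called Pdgfra (0.0475).

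Collagen genes did not share that position. Col1a1 was at 165 CPM against 242 in its match and within controls of 97.8 to 306, and Col3a1 at 764 against 795 and within 414 to 1272. Of 25 collagen and crosslinking genes 3 lay above and 6 below, and of 31 fibrosis mediators and matrix genes 5 and 7. Over all genes tested 19.1% lay above and 16.8% below. Tgfb1, the fibrotic growth factor gene, lay just below the controls at 56.6 against 56.8 to 93.95 CPM, and Fn1, the fibronectin gene, above them at 668 against 434 to 599. The crosslinking enzyme gene Lox was at 7.98 against 8.25 to 17.6 CPM and the fibrillin gene Fbn1 at 44.5 against 52.6 to 107. Of 17 endothelial markers 3 lay below and 1 above, but 13 had their highest control value in the match. Gpihbp1, a capillary gene, was at 34.8 CPM against 73.3 in the match and 36.2 to 70.2 in the other controls.

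Most B and T cell markers lay inside the control range. Over all genes tested 19.1% lay above all controls and 16.8% below, the background for the counts that follow. Of 14 B cell markers 0 lay outside. Of 17 T cell markers 2 lay below and 1 above, with Cd3g at 71.8 against 75.5 to 116 CPM and Foxp3, the regulatory T cell gene, at 9.67 against 3.73 to 7.41. The T cell median was −0.40 against the match and −0.02 against the 5 controls. All 6 thymocyte markers were below the match (median −0.94). They summed to 153 CPM in the irradiated pool and 295 in its match, and to 78.1, 52.0, 75.5 and 341 in the other controls in time order, and their part in the T cell values was not tested. NK and cytotoxic cell markers had 3 of 10 above and 0 below, with the granule genes Prf1 at 51.2 against 18.6 to 50.9 CPM, Gzmb at 52.3 against 20.4 to 44.7 and Nkg7 at 140 against 101 to 136. Against the match 5 of the 10 were higher and 5 lower, with a median log2 of 0.002, and 0.15 against the 5 controls. Plasma cell markers had 2 of 10 above and 1 below, with the syndecan gene Sdc1 at 165 against 79.7 to 117 CPM. Of these 10, 6 were higher than the match and 4 lower. The plasma cell median was 0.08 against the match and −0.17 against the 5 controls. Dendritic cell markers had 5 of 10 above and 1 below, among them Itgae at 87.1 against 41.8 to 78.0 CPM. Neutrophil markers had 3 of 11 above and 1 below, with the collagenase gene Mmp8 at 73.5 against 34.6 to 51.2 CPM, while S100a8 and S100a9 were within range. None of these markers passed. The 7 genes of MHC class II presentation, by which antigen is shown to helper T cells, had 1 member below and 0 above. H2-Aa was at 2147 CPM against 1832 in its match, the lowest control. All 9 red cell genes lay above the match and inside the control range, with Hbb-bs at 6017 CPM against 5398 in the match and 2041 to 19506 in the controls.

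Ribosomal and mitochondrial transcripts were low as whole groups. Of 30 cytoplasmic ribosomal protein genes 29 lay below all controls and 21 had an unadjusted p under 0.05, but none passed (median matched log2 −0.62; smallest edgeR adjusted p 0.505). DESeq2 called 1 ribosomal gene, Rpl37a (0.0498), and 1 mitochondrial gene, mt-Atp6 (0.0425). Rps12 was at 75.3 CPM against 162 in its match and 157, 101, 121 and 150 in the other controls in time order. Rps15a was at 124 against 166 to 252 CPM, and Rpl4 was close to the controls at 692 against 709 to 928. The list's matched median was negative at every time, at −0.50, −0.60, −0.62, −0.34 and −0.29 in time order. All 13 mitochondrially encoded genes lay below the controls (median −0.35), with mt-Atp6 at 989 against 1406 to 1817 CPM and mt-Nd3 at 41.8 against 53.5 to 107. On FPKM 22 ribosomal and 9 mitochondrial genes lay below. Whether RNA quality or library preparation enters these groups was not tested.

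Single stress genes gave large values, and clock genes lay on both sides of the controls. Gclc, which encodes the catalytic subunit of glutathione synthesis, was at 233 CPM against 120 to 146 (edgeR adjusted p = 0.209; DESeq2 0.00716), while 4 of 18 antioxidant genes lay above and 1 below. Hsph1, a chaperone gene, was at 198 CPM against 71.7 in its match and 65.6, 93.1, 94.4 and 93.6 in the other controls in time order (log2 1.23 ± 0.21, edgeR adjusted p = 0.116; DESeq2 0.000631). The irradiated pools of 12 and 32 weeks had 196 and 172 CPM. Immediate early genes such as Fos (299 CPM, controls 220 to 503) and Egr1 were within range. Of 16 circadian clock genes 4 lay above and 6 below, beside 19.1% and 16.8% of all genes. Npas2, an activator of the clock, was at 23.6 against 4.54 to 9.91 CPM, and the repressor genes Nr1d1 and Per1 were at 19.2 against 35.0 to 59.7 and 5.68 against 8.83 to 21.2. The output gene Dbp was at 9.29 against 10.02 to 29.6 CPM. None passed, while DESeq2 called Npas2 (adjusted p = 0.0191) and Nr1d1 (0.0191). The hour of collection, with which clock genes change, is not in the labels.

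**Figure D5:**
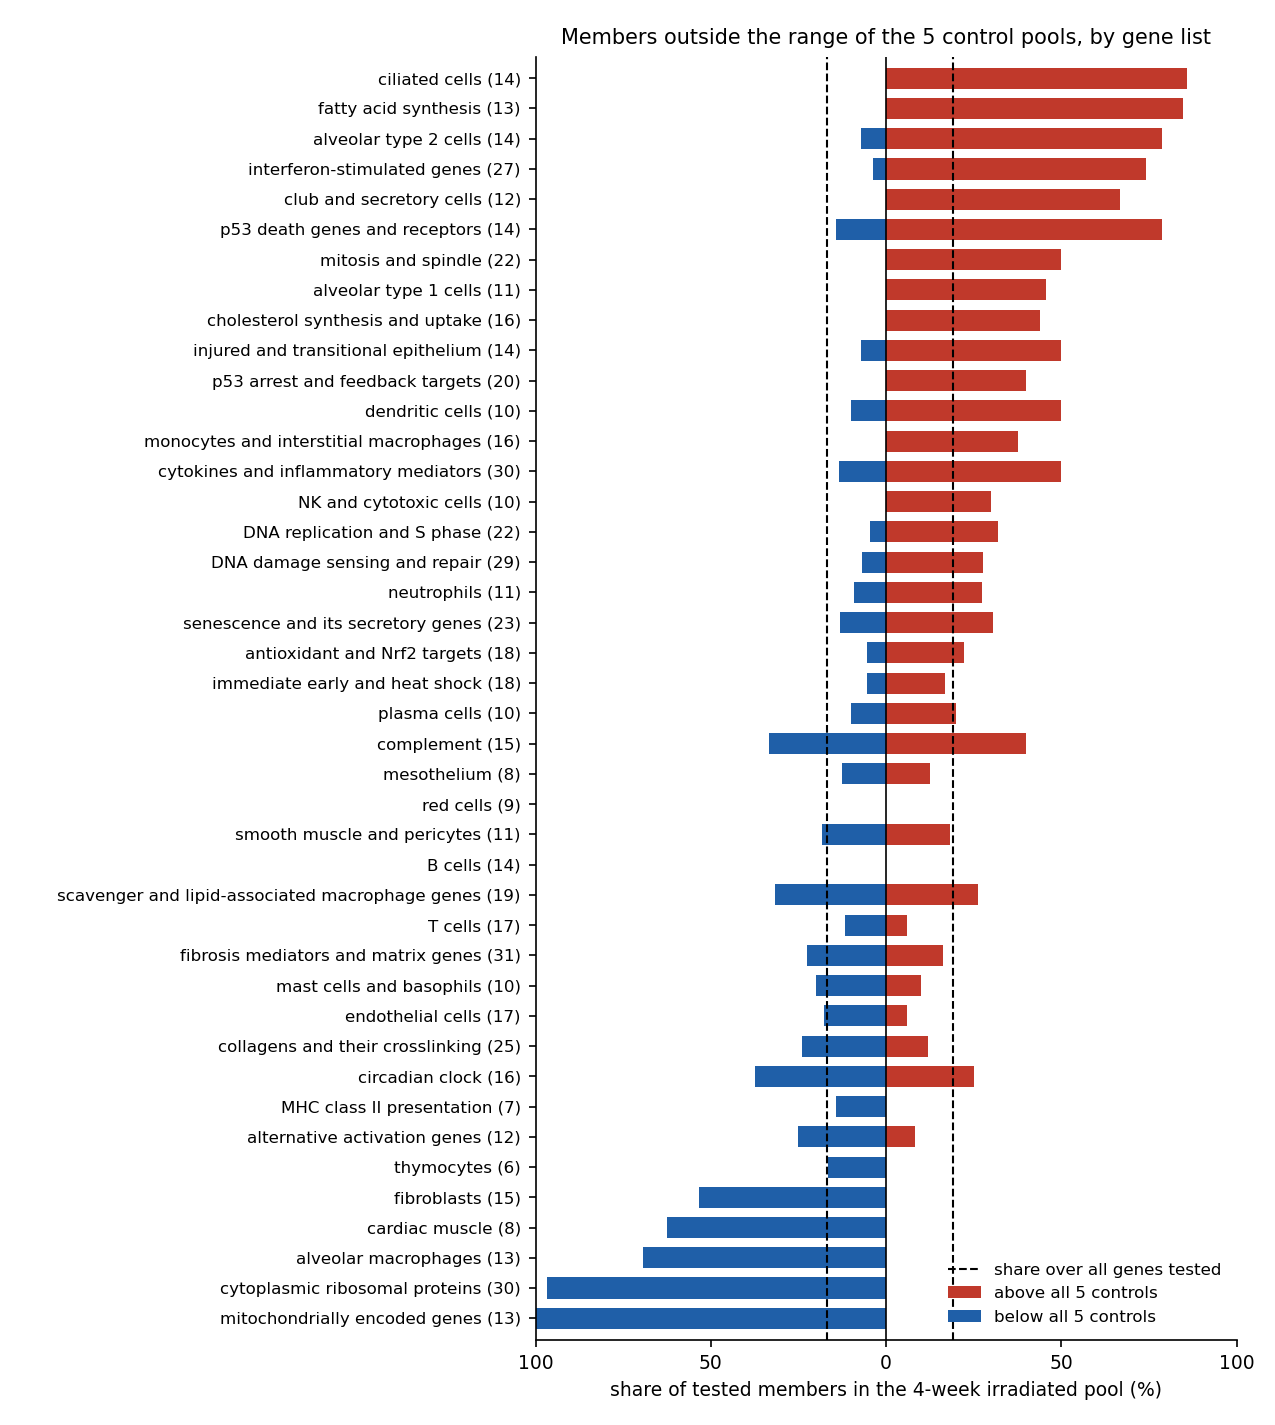
Share of tested members (number in brackets) of 42 gene lists that lay above (red) or below (blue) all 5 control pools in the 4-week irradiated pool, with the shares over all 15625 genes as dashed lines. Ciliated, fatty acid synthesis, type 2 cell, p53 death and interferon lists reach farthest right, and mitochondrial, ribosomal and alveolar macrophage lists farthest left.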

How the data were processed

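Per the labels' protocols, the RNA of each pool of 3 mice was extracted with Qiagen RNeasy PLUS. Libraries were made with Clontech ultralow and then NexteraXT kits of Illumina. This chemistry does not mark strand, so overlapping antisense genes cannot be told apart. The build GRCm38.p4 and the tools STAR 2.4.2a, Trimmomatic 0.32, Cuffdiff and Cufflinks 2.0.2 are named in the submitters' processing notes. The authors deposited estimated counts per gene, already on a scale common to the libraries, and FPKM. Low counts lay at multiples of a step of 0.576 to 1.38, and 77.6% to 79.9% of values under 60 were whole multiples within 0.05. Symbols and coordinates came from GENCODE M21 for 45137 of 45786 genes, and the other 649 took at most 0.168% of counts. All columns matched a sample (0 did not).

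Counts were rounded and TMM-scaled, and 15625 genes passed filterByExpr (minimum count 10). edgeR 4.0.16 (R 4.3.3) compared the irradiated pool with the 5 controls (4 residual degrees of freedom), with its match (3), and its effect with that of the other times (3). These tests assume that the lone pool varies like the controls, which differ in age. Matched folds use a prior count of 2 and have no test. In simulated counts for the first comparison (15625 genes, 200 changed, dispersion 0.03), 4-fold and 8-fold changes were recovered at 100%, and 13 unchanged genes were called. The fitted common dispersion of the real counts is higher, 0.0578. The simulation also gave every gene the same dispersion and changed only genes above a minimum level. Its recovered share therefore does not carry over to the real counts. DESeq2 1.42.0 and limma 3.58.1 served as alternatives. The genes, lists and tests were chosen with earlier results of these data known. Named genes are the 12 largest matched folds in each direction among called genes, filled from genes of at least 50 counts outside the controls, 12 set genes such as Cdkn1a, and up to 4 uncalled members per list beside called ones. Other list members named were chosen after their values were seen. In the list of alveolar macrophage markers Siglec5 was read as Siglecf. A few list members are counted in their lists but not reported here by name.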

Additional observations from a re-analysis of the deposited data

Results flagged for a closer look

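The gene ENSMUSG00000107372 was marked because its 4-week effect differed from that at the other 4 times (edgeR adjusted p = 0.0386). The effect rests on 1 pool, in which the gene rounded to 0 counts, and the call was lost with total count scaling, with limma and without the pools of any 1 of the other times.

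Among 77 named genes and lists, 5 had 1 control pool far from the other 4, a gap that chance gives in about 1 of 20 such groups (0.05). Mmp12 was at 162 CPM in the 12-week control. Cpne5 was at 39.2 CPM in the 4-week control, the lowest of the 5 and the nearest to the irradiated pool. By mean log2 CPM, the p53 death genes and receptors were lowest in the 12-week control (3.59). In the 32-week control the senescence and secretory genes were highest (5.01), and the NK and cytotoxic cell markers lowest (4.25).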

How the results depend on the processing

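The test of the 4-week effect against the other times has each time as a block of 1 control and 1 irradiated pool. Against the 5 controls, edgeR called 8 genes, and 8 with total count scaling and with recovered fragments. DESeq2 called 95, no filter gave 31, and limma on log2(FPKM + 1) and log2(FPKM + 0.1) gave 16 and 17. Leaving out 1 control gave 5 (without the 1-week control) to 14 (without the 4-week control). Krt79, Ear1, Cpne5 and ENSMUSG00000107372 stayed called in every one of these settings, and so did Sowahc except with DESeq2, which gave it no adjusted p. Against the match 3 genes became 32 (DESeq2), 13 (no filter), 5 (recovered fragments), 7 and 8 (limma), and 0 to 5 without 1 other control. The 0 came without the 1-week control, where 516 genes had an unadjusted p under 0.05. The fit without the matched control has no value. For the difference from other times 1 gene became 8 with DESeq2, 4 with no filter, 0 with total count scaling, and 0 without the pools of 24 hours, 1, 12 or 32 weeks. Genes with an unadjusted p under 0.05 then numbered 290, 235, 232, 475 and 479. With limma 1 gene was called at either pseudocount, not ENSMUSG00000107372.

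On FPKM 4831 genes lay above and 1288 below all controls, beside 2988 and 2632 on CPM. The median matched log2 fold over all genes was 0.17 on FPKM + 1, beside 0.03 on CPM. Genes at least 2-fold from the match were 547 and 500 at a minimum of 10 counts. With FPKM + 1, the list medians of clock (0.10), collagen (0.10), and immediate early and heat shock genes (0.145) turned positive. With the mean of the 5 controls as reference, collagen (0.02), immediate early and heat shock (0.07), T cell (0.03), endothelial (0.01) and thymocyte (0.64) medians turned positive, and alternative activation (−0.21), B cell (−0.06), red cell (−0.02), plasma cell (−0.10) and MHC class II (−0.13) medians negative. Total count scaling turned the antioxidant (−0.002), NK cell (−0.05) and type 1 cell (−0.04) medians negative. The cause of these shifts was not tested. Each time had 1 pool per treatment, which limits every statement above.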
